A study of Mus musculus with 10 samples.

Results

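The genes described here are 10 members of the tumour necrosis factor (TNF) superfamily, 6 ligands (Tnf, Fasl, Tnfsf9, Tnfsf10, Tnfsf13b and Tnfsf14) and 4 receptors (Tnfrsf1a, Tnfrsf1b, Fas and Cd40). They were chosen by symbol as a gene family, and all 10 were found among the 28185 genes of the deposited table. They were followed in 10 RNA-seq libraries of cells selected with beads against Ly6G, a surface protein of mouse neutrophils. All mice were C57Bl/6J males of 12 to 16 weeks whose left coronary artery had been ligated, and cells were taken at day 3 from the infarcted left ventricle (MI, n = 3; MI + MSC, n = 3) or from blood (Blood, n = 2; Blood + MSC, n = 2). Mice of the MSC groups had received syngeneic mesenchymal stromal cells of mouse bone marrow under the skin shortly after ligation, so the cells were placed away from the heart, and mice of the other groups had an infarct without MSC. A healthy, unligated group was not analysed here.

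Ligands of the TNF superfamily are mostly made as trimers on the cell surface, and some, such as TNF, are cut free by the protease ADAM17. Their receptors recruit TRAF adaptors and ubiquitin enzymes that switch on NF-kB and MAP kinases, and those with a death domain, such as TNFR1 and Fas, can also start programmed cell death. In an infarct, TNF is known as an early inflammatory cytokine made by infiltrating leukocytes and by resident cells.

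Values are normalized counts, which are read counts after division by a size factor that DESeq2 estimated for each library. Libraries held between 148594 (MI 13) and 8602711 (Blood + MSC 24) reads on genes, a 57.9-fold range. A single read stood for 8.40 units in MI 13, 7.07 in Blood 21 and 0.168 to 2.30 in the other libraries, so low values in these 2 libraries rest on very few reads. The 12 neutrophil markers all had reads in every group. A mean of at least 10 normalized counts was reached by 11 of them in MI, 9 in MI + MSC and 12 in each blood group. Their summed level differed as well. It was 2547 to 13564 in the infarct, 44787 to 53435 in Blood and 16764 to 23725 in Blood + MSC. Ly6g itself lay between 4.75 and 26.9 in infarct libraries and between 41.2 and 644.5 in blood libraries. With MSC in blood, 1 of the 12 had a positive fitted change (median log2 fold change -1.64) and none was called. The part of this difference in the MSC comparison in blood was not tested. The 10 macrophage and monocyte markers summed to 2731 to 10448 in the infarct and 5529 to 7871 in blood. Cardiomyocyte markers summed to 1247 to 10228 in the infarct, with 4 of 6 (Actc1, Tnnt2, Mb and Pln) at 0 in both Blood libraries. The 6 platelet markers found summed to 25125 in Blood 21 and 1095 in Blood 22. Their sum was 586 to 691 in Blood + MSC and 462 to 1763 in the infarct. All 6 were called lower in MI than in Blood (median log2 fold change -4.45). The part of platelet RNA in the comparisons with Blood was not tested. In such bulk samples, fewer cells of a type and less RNA per cell cannot be told apart. The batch named in the labels was the same as the group, so batch and group cannot be told apart either. Blood was drawn just before the heart was taken, so a heart and a blood library may come from the same mouse. Which ones do is not given in the sources used here, and the comparisons of infarct with blood treat them as separate.

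**Figure D1:**
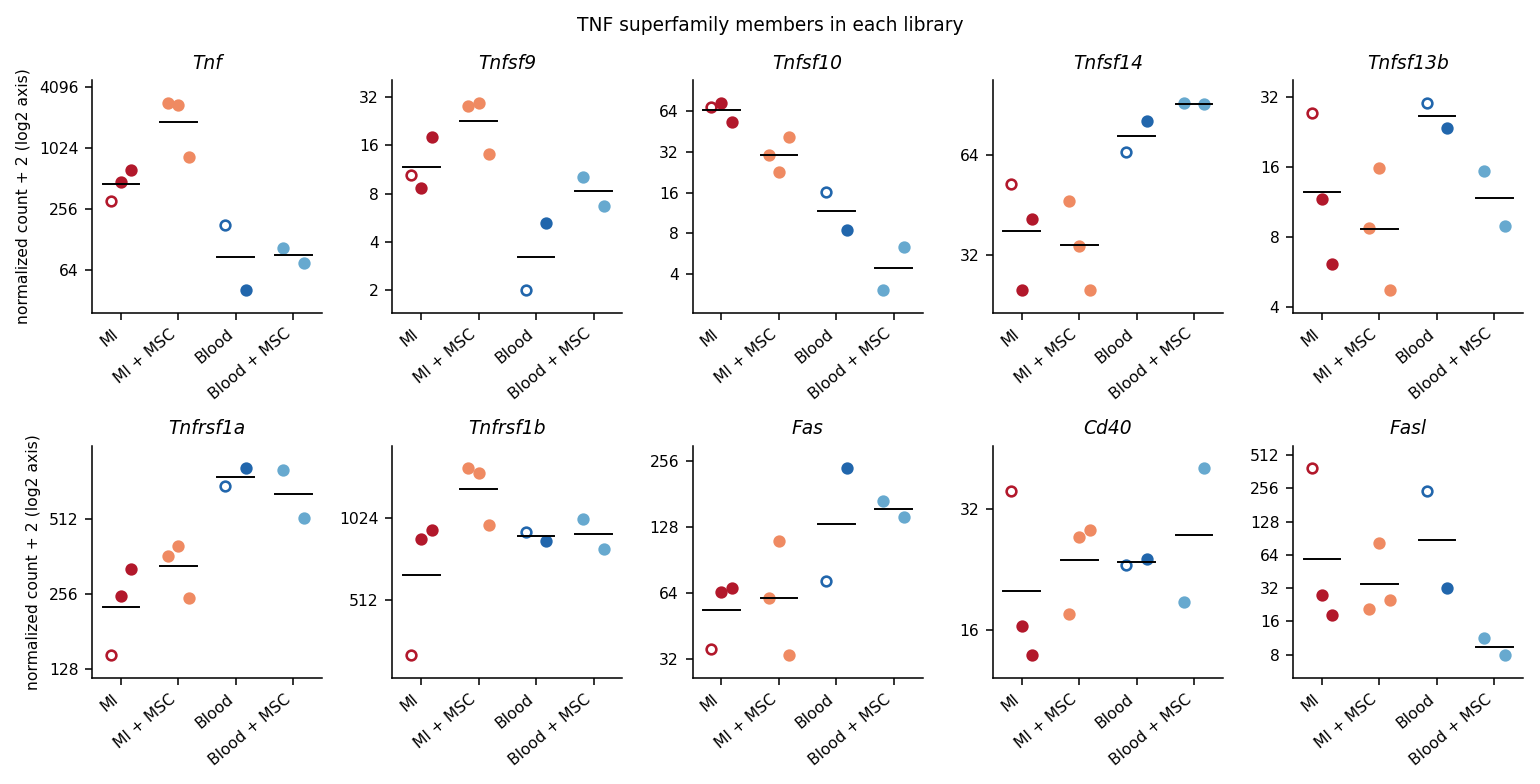
Normalized count plus 2 of each member (log2 axis) in every library, by group, with horizontal bars at the group mean on the log scale and open circles for the shallowest libraries, MI 13 and Blood 21. All 6 infarct libraries lay above all 4 blood libraries for Tnf and Tnfsf10, and below them for Tnfrsf1a, Tnfsf14 and (except MI + MSC 17, at 108 against 70.65 in Blood 21) Fas. The points of Blood 21 rest on 2 reads for Tnfsf10, 9 for Tnfsf14 and 10 for Fas.

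In MI against Blood, Tnf, Tnfsf10 and Tnfsf9 were higher and Tnfrsf1a was lower, so 4 of 10 members passed the threshold (limma p under 0.05 after Benjamini-Hochberg adjustment, and a size of 0.5 or more on the log2 scale). Over all 11549 genes tested, 34.7% passed it, 21.2% higher and 13.5% lower, so the share of members was near that of all genes. Of the genes called, 61.2% were higher in MI, and 82.3% with scaling to library size. In MI + MSC against Blood + MSC, 3 members passed, Tnf and Tnfsf10 higher and Tnfsf14 lower, against 14.1% of all genes (8.23% higher and 5.85% lower). The median log2 fold change of the members was -0.53 in the first comparison and 0.17 in the second, against 0.15 and 0.09 for all genes tested. The libraries of the 2 groups did not overlap for 3 members higher and 3 lower in MI against Blood (31.6% and 23.6% of all genes), and for 4 higher and 3 lower in MI + MSC against Blood + MSC (33.8% and 29.7%).

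The MSC comparisons called no member. With limma, 0 of 10 members and 0 of 11549 genes passed in MI + MSC against MI (0.00%) and in Blood + MSC against Blood (0.00%). At an unadjusted p under 0.05, 3 members stood out in the heart (Tnf, Tnfrsf1b and Tnfsf10), where 8.01% of all genes did, and 2 in blood (Fasl and Tnfsf10), where 7.34% did. Reads of Fasl did not follow library depth, as described below, so counts that hold it are read beside depth only. DESeq2 on the reads of all libraries called 1 member in the heart, Tnf, among 0.658% of genes called, and edgeR called 0 members and 0.00% of genes in either tissue. DESeq2 on the 2 groups compared called Tnf in the heart (1.30% of genes called) and Fasl in blood (0.277%), and limma-voom with sample quality weights called Tnf in the heart (2.26%). The libraries did not overlap for 2 members higher and 1 lower in the heart (7.05% and 9.60% of all genes) and for 2 higher and 3 lower in blood (2428 of 11549 genes higher, and 15.4% lower). The difference between the 2 MSC effects was called for 0 members and 0.00% of genes, with 0 members and 7.26% of genes at an unadjusted p under 0.05. The members' median log2 fold change was 0.21 in the heart and 0.05 in blood, against -0.01 and 0.11 for all genes.

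**Figure D2:**
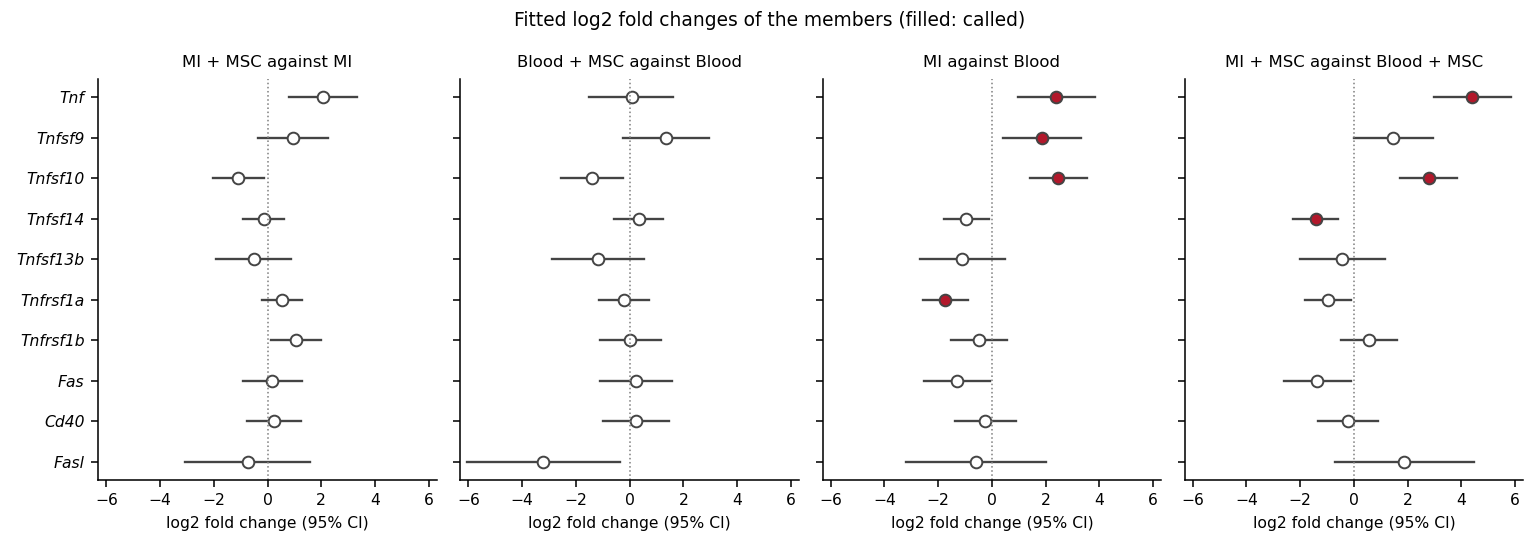
Fitted log2 fold changes (points) and 95% confidence intervals (lines) of the 10 members in the 4 comparisons, on the log2(normalized count + 2) scale, filled where called. The calls are confined to the comparisons of infarct with blood, where Tnf reached 2.40 in MI against Blood and 4.40 in MI + MSC against Blood + MSC.

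Tnf (chr17:35418357-35420983, minus strand, GRCm39) encodes the cytokine TNF. It was measured at 303, 473 and 620.2 normalized counts in MI 13, 19 and 20, at 2880, 2707 and 843 in MI + MSC 15, 17 and 18, at 177 and 38.3 in Blood 21 and 22, and at 104 and 72.7 in Blood + MSC 23 and 24. The lowest infarct library was thus above the highest blood library, and the lowest MI + MSC library was above the highest MI library. The value of MI 13 rests on 36 reads, with a 95% Poisson interval of 212 to 419, and that of Blood 21 on 25 reads. These intervals cover counting error only.

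Against Blood, Tnf was 5.28-fold higher in MI (log2 fold change 2.40, SE 0.65, limma adjusted p = 0.0165). Against Blood + MSC, it was 21.1-fold higher in MI + MSC (log2 fold change 4.40, SE 0.65, limma adjusted p = 0.00186). The first call was lost without Blood 22 (log2 fold change 1.33, adjusted p = 0.155), while the second held in all 25 alternative settings, between 4.09 and 4.97. With MSC in the heart, Tnf had a log2 fold change of 2.07 (SE 0.58, 95% interval 0.79 to 3.34, limma adjusted p = 0.517), positive in all 25 settings (1.76 to 2.64) and past the threshold in 3 of them. DESeq2 gave an adjusted p of 0.0159 with all libraries and 0.000357 with the heart libraries alone, and limma-voom with sample quality weights gave 0.0309. In blood, the fitted change was 0.07 (SE 0.71, 95% interval -1.50 to 1.63), and it turned negative in 6 of 25 settings. The difference between the heart and the blood effect was 2.0 (95% interval -0.02 to 4.02, limma adjusted p = 0.63), and no setting called it. It was 0.93 without Blood 21 and 3.07 without Blood 22 (limma adjusted p = 0.83 and 0.0521), and 0.65 without both MI 13 and Blood 21.

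The 2 libraries with the most Tnf, MI + MSC 15 and 17, also had the highest neutrophil marker sums among infarct libraries. The 12 markers summed to 8215, 13564 and 2819 in MI + MSC 15, 17 and 18, against 2547, 8091 and 5996 in MI 13, 19 and 20. Single markers did not all follow this order. Csf3r was highest in MI + MSC 15 and 17 (2097 and 2753), whereas Ly6g was at 6.76 and 13.8 there and at 16.8 to 26.9 in MI, and 5 of 12 markers had a positive fitted change with MSC (median log2 fold change -0.18). Their part in the difference between MI + MSC and MI was not tested. The 4 blood libraries had higher sums than any infarct library and Tnf at no more than 177. Over the 10 libraries, the genes whose profile was most like that of Tnf among 5601 genes were Rab20, Gpr84 and Maff (Pearson r = 0.99 each). These correlations are a description, since the points share libraries that differ in tissue and depth.

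Tnf lies in a cluster with the lymphotoxin genes. Lta lies 1157 bases from it, and Ltb, which encodes the membrane anchor of lymphotoxin, ends 3060 bases from it on the other side. Lta was close to undetected, with 0 to 4 reads per library. Ltb was at 8.40, 71.1 and 46.3 (MI), 73.0, 122 and 35.25 (MI + MSC), 198 and 231 (Blood) and 190.4 and 189.5 (Blood + MSC). All infarct libraries were thus below all blood libraries, the opposite order to Tnf. Ltb was called lower in MI than in Blood (log2 fold change -2.70, SE 0.70, limma adjusted p = 0.0138), with 1 read in MI 13 and the call lost without Blood 22 (-2.59, adjusted p = 0.0564), but not in MI + MSC against Blood + MSC (-1.45, SE 0.70, limma adjusted p = 0.183). Per kb of exon within the same library, the ratio of Tnf to Ltb reads was 6.28 to 37.3 in the 6 infarct libraries and 0.157 to 0.844 in the 4 blood libraries. The 5 B cell markers, a cell type rich in Ltb, summed to 39.03 to 72.5 in the infarct and 28.3 to 382 in blood, with the lowest blood sum in Blood 21, where Ltb was at 198. Their part in the Ltb difference was not tested.

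**Figure D3:**
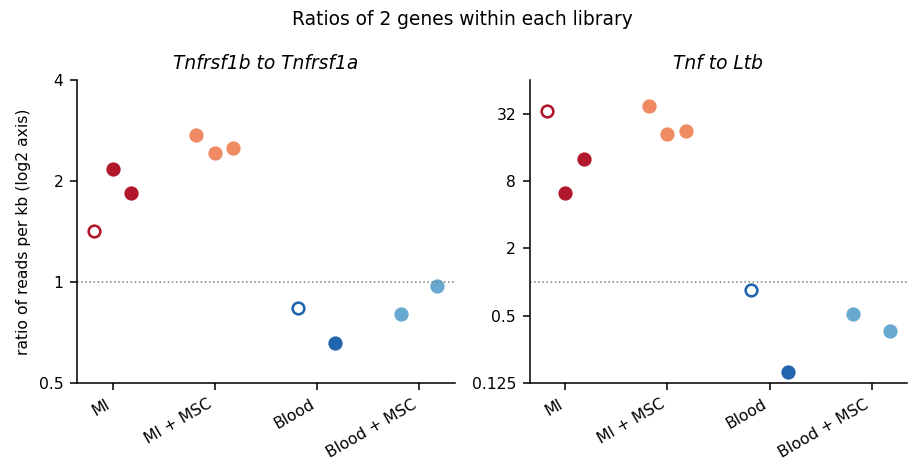
Ratio of reads per kb of exon between a pair of genes within each library (log2 axes, dotted line at 1, open circles for MI 13 and Blood 21). Tnfrsf1b to Tnfrsf1a (left) was 1.42 to 2.74 in infarct and 0.658 to 0.971 in blood libraries. Tnf to Ltb (right) was 6.28 to 37.3 and 0.157 to 0.844. In MI 13 the ratios rest on 17 Tnfrsf1a reads and 1 Ltb read.

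A second pair of ligand genes lies further along the same chromosome. Tnfsf9 (chr17:57412298-57414769, plus strand), which encodes 4-1BBL, the ligand of the co-stimulatory receptor 4-1BB, is 81.7 kb from Tnfsf14 (chr17:57496451-57501177, minus strand), which encodes LIGHT, a ligand of HVEM and the lymphotoxin beta receptor. Tnf and Tnfsf9 were called higher in MI than in Blood, while Tnfsf14 leaned the other way. The Tnfsf9 call was kept in 4 of 24 settings and takes in a 0 in Blood 21, as given below. The 250 bases before the annotated starts of these 3 genes are shown, read in the direction of transcription from the GRCm39 genome. Capitals mark the motifs found.

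Tnf, chr17:35420984-35421233, minus strand: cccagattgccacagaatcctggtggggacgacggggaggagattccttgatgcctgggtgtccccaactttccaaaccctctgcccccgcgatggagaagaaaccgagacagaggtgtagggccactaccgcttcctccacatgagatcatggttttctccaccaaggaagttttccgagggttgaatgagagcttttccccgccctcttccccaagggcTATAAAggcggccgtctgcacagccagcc

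Tnfsf9, chr17:57412048-57412297, plus strand: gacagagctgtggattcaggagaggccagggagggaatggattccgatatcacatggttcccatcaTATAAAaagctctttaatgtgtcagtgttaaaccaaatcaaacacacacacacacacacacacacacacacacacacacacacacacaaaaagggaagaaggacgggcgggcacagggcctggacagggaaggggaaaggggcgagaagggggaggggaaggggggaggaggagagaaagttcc

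Tnfsf14, chr17:57501178-57501427, minus strand: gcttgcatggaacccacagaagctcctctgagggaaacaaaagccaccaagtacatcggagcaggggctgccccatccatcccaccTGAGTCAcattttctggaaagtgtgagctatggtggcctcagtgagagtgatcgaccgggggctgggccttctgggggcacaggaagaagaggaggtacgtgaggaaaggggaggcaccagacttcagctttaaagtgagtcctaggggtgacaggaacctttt

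The capitals in Tnf and Tnfsf9 match the letters of a TATA box (TATAAA). The match begins 29 bases before the start of Tnf and 184 bases before that of Tnfsf9. The capitals in Tnfsf14 match an AP-1 site (TGANTCA), 164 bases before the start. Whether any match works as such an element, or has a part in the direction of these genes, was not tested. On either strand, 9.73% of 17888 promoters of this length held TATAAA and 5.70% held TGANTCA, against 2 and 3 of the 10 members. An NF-kB motif (GGG, any 2 bases and TTTCC) and a CRE (TGACGTCA) were in 0 of the 10 windows and in 1.50% and 1.73% of all promoters. An ISRE (a pair of GAAA with any 2 bases between) was in the windows of 2 members (3.27% of all) and a GAS motif (TTCNNNGAA) in those of 3 (7.15% of all). An absent match says only that these letters are not in this window.

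Tnfsf9 was a low gene. It was at 8.40, 6.73 and 15.96 normalized counts (MI, from 1, 7 and 31 reads), 26.4, 27.55 and 12.2 (MI + MSC), 0 and 3.25 (Blood) and 8.14 and 4.71 (Blood + MSC). Every infarct library was above the libraries of the blood group with the same treatment, although MI 19 was below Blood + MSC 23. The 0 in Blood 21 allows up to 21.2 normalized counts, which is above all 3 MI values, so this library cannot show a difference at its depth. With that limit in place of the 0, the difference between the group means is 0.09 on the log2 scale. Tnfsf9 was called higher in MI than in Blood (log2 fold change 1.86, SE 0.66, limma adjusted p = 0.0489), but 4 of 24 settings kept the call. The value was 1.17 without Blood 21, and 1.21 and 0.80 with pseudocounts of 5 and 10. It was lost when any of 8 libraries was left out, with adjusted p between 0.0592 and 0.227 (0.227 without Blood 21), and was kept without MI 13 or without Blood 22. After MSC, the difference between infarct and blood was 1.47 (SE 0.66, limma adjusted p = 0.157), called by 8 of 24 settings. The fitted MSC effect was 0.96 in the heart (SE 0.59, adjusted p = 0.662) and 1.35 in blood (SE 0.73, adjusted p = 0.684) in limma, and neither was called in any setting.

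Tnfsf14 was lower in the infarct. Its levels were 50.4, 23.1 and 39.1 (MI), 44.6, 32.1 and 23.05 (MI + MSC), 63.6 and 79.3 (Blood) and 90.1 and 89.0 (Blood + MSC). No infarct library reached the lowest blood library, Blood 21. That value rests on 9 reads (95% Poisson interval 29.1 to 121), and the highest infarct value, in MI 13, on 6 reads (18.5 to 110). The order of these 2 libraries is therefore not resolved. The difference was called in MI + MSC against Blood + MSC (log2 fold change -1.42, SE 0.38, limma adjusted p = 0.0318), in the main test and 21 of 25 settings. It was lost when MI + MSC 17, MI + MSC 18, Blood + MSC 23 or Blood + MSC 24 was left out (adjusted p = 0.0675, 0.115, 0.23 and 0.151). In MI against Blood it was -0.95 (SE 0.38, limma adjusted p = 0.0741), and it was called without MI 13 (-1.19, adjusted p = 0.0378). With MSC, the fitted change was -0.15 (95% interval -0.90 to 0.61) in the heart and 0.33 (95% interval -0.60 to 1.25) in blood.

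Tnfsf10 (chr3:27371033-27396576, plus strand) encodes TRAIL, a ligand that can trigger death receptors. It was at 67.2, 72.1 and 51.5 (MI), 28.4, 20.7 and 39.3 (MI + MSC), 14.1 and 6.497 (Blood) and 1.05 and 4.375 (Blood + MSC). The 4 groups did not overlap and stood in the order MI, MI + MSC, Blood, Blood + MSC. Tnfsf10 was 5.55-fold higher in MI than in Blood (log2 fold change 2.47, SE 0.49, limma adjusted p = 0.00359) and 6.92-fold higher in MI + MSC than in Blood + MSC (2.79, SE 0.49, limma adjusted p = 0.00409). The first was called in all 25 settings. The second was called in 24, and not without Blood + MSC 23 (2.26, adjusted p = 0.0759). The MSC effect was negative in every setting in both tissues and was never called, with a fitted log2 fold change of -1.09 in the heart (SE 0.43, limma adjusted p = 0.606) and -1.41 in blood (SE 0.53, limma adjusted p = 0.672). In the heart the MI + MSC libraries lay below all MI libraries, as did those of 9.60% of genes, and in blood the same held, as for 15.4% of genes. The blood values rest on 2 to 26 reads.

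Most of the 7 endothelial markers were also higher in the infarct, with 4 called higher in each comparison with blood and none called with MSC. Their sum was 1555 to 1691 in MI, 385 to 703 in MI + MSC, 124 to 1639 in Blood and 72.7 to 78.0 in Blood + MSC, and Cdh5 was at 478 to 513, 120 to 233, 6.497 to 7.07 and 2.19 to 4.73 in these groups. The sum in Blood 21 (1639) held Vwf at 911 and Pecam1 at 586, with platelet markers at 25125. Cdh5 had 1 read in that library, and Kdr and Emcn had 0. Tnfsf10 was at 14.1 there from 2 reads (95% Poisson interval 1.71 to 51.05), so its level in Blood 21 is not resolved. Lpl, Luzp1 and Hk2 had the profiles most like that of Tnfsf10 (r = 0.99, 0.98 and 0.98 over 10 libraries). The part of endothelial RNA in the Tnfsf10 differences was not tested.

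Fasl (chr1:161608258-161616075, minus strand) encodes Fas ligand, known from T and NK cells. Its normalized counts were 387, 25.95 and 16.5 (MI), 18.9, 80.4 and 23.05 (MI + MSC), 240.2 and 29.9 (Blood) and 9.46 and 5.89 (Blood + MSC). The high values were those of the shallowest libraries. The reads behind them were 46, 27 and 32 (MI), 28, 35 and 34 (MI + MSC), 34 and 46 (Blood) and 36 and 35 (Blood + MSC), so the read number stayed within a 1.70-fold range while library totals ranged 57.9-fold. Among 9644 tested genes with a read in every library, the median ratio of the highest to the lowest read number was 80.7. Only 2 had a ratio of 2 or less, Fasl and ENSMUSG00000118642 (813 to 1085 reads), which has no name in the annotation used, and the next lowest was 3.25. The profiles most like that of Fasl were those of ENSMUSG00000118642 (r = 0.99), the small nuclear RNA gene Rn7sk (0.97) and the ribosomal RNA gene Rn18s-rs5 (0.95).

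A Fasl read number that does not follow depth gives a normalized count that falls as depth rises, so its fitted changes are read here beside depth only. They were -3.21 in Blood + MSC against Blood (SE 1.30, limma adjusted p = 0.672), where DESeq2 on the blood libraries alone called it (-4.17, adjusted p = 0.00623) and the Blood + MSC libraries were the deepest of all. In the heart, the change with MSC was -0.74 (SE 1.06), and 0.63 without MI 13 and Blood 21. In MI + MSC against Blood + MSC, Fasl was at 1.88 (SE 1.19, limma adjusted p = 0.303) and was called in 3 of 25 settings. Fasl is also 1 of the 4 members whose libraries were all higher there, so the counts for this comparison take in a gene that does not follow depth. The same holds for Blood + MSC against Blood. In it, Fasl is 1 of the 2 members at an unadjusted p under 0.05 and 1 of the 3 with all libraries lower. The 11 T and NK cell markers summed to 17.3 to 177 per library, and none of them had a mean of 10 normalized counts over all libraries. The cause of the even read number was not tested.

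**Figure D4:**
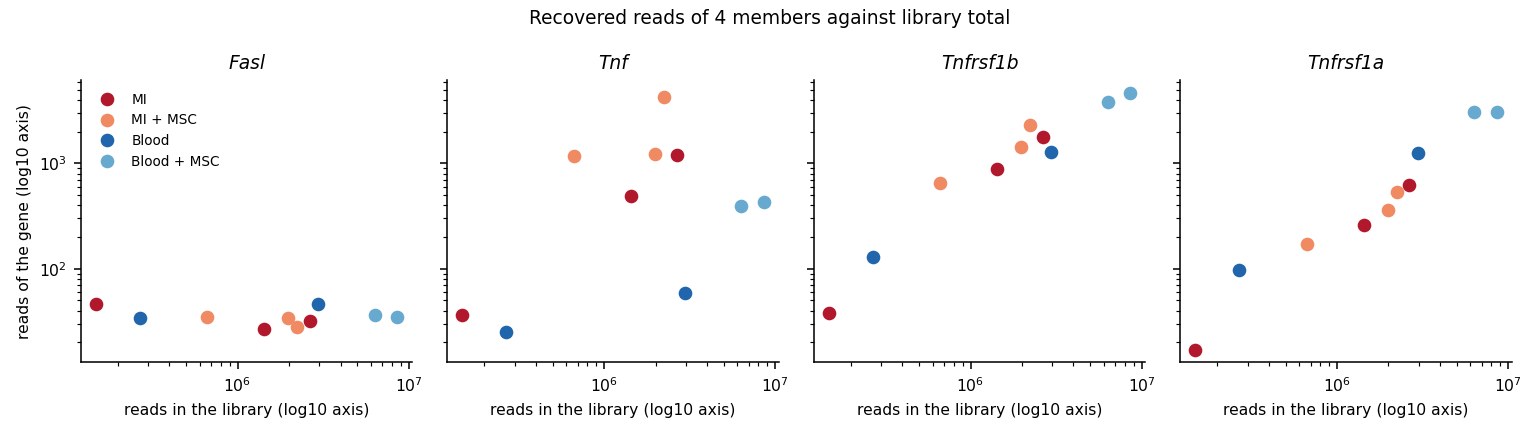
Reads of Fasl, Tnf, Tnfrsf1b and Tnfrsf1a against the total reads of the library (log10 axes), coloured by group. Fasl stayed between 27 and 46 reads at every depth, whereas Tnfrsf1b ran from 38 to 4666 and Tnfrsf1a from 17 to 3058.

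Tnfsf13b, which encodes the B cell survival factor BAFF, was at 25.2, 9.61 and 4.12 (MI), 6.76, 13.8 and 2.71 (MI + MSC), 28.3 and 21.4 (Blood) and 13.4 and 6.90 (Blood + MSC). The infarct and blood ranges overlapped, and infarct libraries held 3 to 10 reads. The limma log2 fold change was -1.10 in MI against Blood (SE 0.72, adjusted p = 0.253) and between -1.19 and -0.43 in the other 3 comparisons, none of them called. limma-voom alone called MI against Blood (-1.87, adjusted p = 0.0292).

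Among receptors, Tnfrsf1a (chr6:125325566-125339632, plus strand) encodes TNFR1, the death-domain receptor of TNF found on most cells. It was at 143, 249.9 and 319 (MI), 362, 395 and 245 (MI + MSC), 692 and 814 (Blood) and 803 and 514 (Blood + MSC). The highest infarct library stayed below the lowest blood library. Tnfrsf1a was 3.31-fold lower in MI than in Blood (log2 fold change -1.73, SE 0.39, limma adjusted p = 0.00699), a call that all 25 settings kept (-1.98 to -1.21). In MI + MSC against Blood + MSC it was -0.97 (SE 0.39, limma adjusted p = 0.116), and 7 settings called it, among them the fit without MI 13 (adjusted p = 0.0415). With MSC it was 0.54 in the heart (95% interval -0.22 to 1.30) and -0.22 in blood (95% interval -1.16 to 0.71). The neutrophil marker sum was also lower in the infarct, as given above, and its part in the difference was not tested. Tpd52 (r = 1.0), Ankrd33b and Bcl6 (0.99 each) had the profiles most like that of Tnfrsf1a.

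Tnfrsf1b (chr4:144938938-144973477, minus strand) encodes TNFR2, the TNF receptor without a death domain, which is found mainly on leukocytes and endothelium. Its levels were 319, 854.5 and 922 (MI), 1561, 1504 and 967 (MI + MSC), 911 and 841 (Blood) and 1013 and 785 (Blood + MSC). The MI + MSC libraries were above all MI libraries, as were those of 7.05% of genes, and the infarct and blood ranges overlapped. The MSC effect in the heart was 1.05 (SE 0.42, limma adjusted p = 0.609), positive in all 25 settings (0.56 to 1.33) and called in none. In blood it was 0.03 (95% interval -1.11 to 1.16). Infarct and blood differed by -0.47 (SE 0.47) without MSC and 0.56 (SE 0.47) with it, and the first turned to 0.05 with scaling to library size.

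The 2 TNF receptors thus differed in their balance between tissues. Within a library, where scaling cancels, the ratio of Tnfrsf1b to Tnfrsf1a reads per kb of exon was 1.42 to 2.18 in MI, 2.42 to 2.74 in MI + MSC, 0.658 to 0.837 in Blood and 0.802 to 0.971 in Blood + MSC. The receptor ratio was above 1 in all 6 infarct libraries and below 1 in all 4 blood libraries, and MI + MSC lay above MI. It is given as a description, without a test, and counting error was not carried into it. The ratio of MI 13 rests on 38 Tnfrsf1b and 17 Tnfrsf1a reads, and that of Blood 21 on 129 and 98.

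Fas (chr19:34268001-34305173, plus strand), the death receptor for Fas ligand, was at 33.6, 62.5 and 65.4 (MI), 58.8, 108 and 31.2 (MI + MSC), 70.65 and 235 (Blood) and 166.5 and 140.3 (Blood + MSC). Blood libraries were higher within each treatment, without overlap. The log2 fold change was -1.29 in MI against Blood (SE 0.56, limma adjusted p = 0.0939) and -1.36 in MI + MSC against Blood + MSC (SE 0.56, limma adjusted p = 0.126). The first was called by 6 of 25 settings, with -2.14 and an adjusted p of 0.0227 without Blood 21, and the second by 7 of 25. With MSC it was 0.17 (95% interval -0.93 to 1.28) in the heart and 0.24 (95% interval -1.11 to 1.59) in blood, and each sign changed in some settings.

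Cd40 (chr2:164897544-164914868, plus strand) encodes the co-stimulatory receptor of B cells, dendritic cells and macrophages. It was at 33.6, 14.4 and 11.8 (MI), 15.55, 25.25 and 26.4 (MI + MSC), 21.2 and 22.1 (Blood) and 16.8 and 38.5 (Blood + MSC). The groups overlapped in every comparison, with limma log2 fold changes between -0.24 and 0.25 and none called in any setting. Blood + MSC 24, the library with the most Cd40, also had the highest sum of the 5 B cell markers (382), while Blood 22 had 318 and Cd40 at 22.1. The part of B cells was not tested.

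Levels of different members can be compared per length only. In reads per kb of exon scaled to 1000000 reads per library, the infarct medians (n = 6) ran from Tnf at 330.2, Tnfrsf1b at 141 and Tnfrsf1a at 66.1 to Fas at 18.2, Tnfsf14 at 13.2, Fasl at 9.24, Tnfsf9 at 7.82, Tnfsf10 at 6.19, Cd40 at 3.96 and Tnfsf13b at 0.834. Neighbours in this order overlapped in range between libraries, except that the lowest Tnfrsf1a library (36.3) was above the highest Fas library (30.4). Within single infarct libraries, the ratio of Tnf to Tnfrsf1b per kb of exon was 1.67 to 5.57. That of Tnfrsf1b to Tnfrsf1a was above 1 in each, as given above. In blood (n = 4), the order of medians began with Tnfrsf1a at 125.2, Tnfrsf1b at 103, Fas at 42.5, Tnf at 34.3 and Tnfsf14 at 25.3, followed by Fasl at 5.45, Cd40 at 3.32, Tnfsf9 at 1.86, Tnfsf13b at 1.40 and Tnfsf10 at 0.592. There the lowest Tnfrsf1b library (88.5) was above the highest Fas library (52.8), and Fas, Tnf and Tnfsf14 overlapped. Fasl ran from 159 in MI 13 to 2.09 in Blood + MSC 24 with reads that did not follow depth, so its place in either order is not read as a level. Tnf thus had the highest median of the members in the infarct and the fourth in blood.

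Of 70 other genes of the pathway on 5 lists, 67 were in the table and 48 were tested. With limma, 0 were called in either MSC comparison or in the difference between them. In MI against Blood, 6 were higher and 7 lower, which is 13 of 48 where 34.7% of all genes were called. In MI + MSC against Blood + MSC, 5 were higher and 3 lower, where 14.1% of all genes were called, and all of these 8 but Tnfaip3 lost the call without Blood + MSC 23. The median log2 fold change of the 48 was -0.11 and 0.01, against 0.15 and 0.09 for all genes. Cd40lg, Cd70 and Tnfrsf17 were not analysed here.

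Among the 20 adaptors and ubiquitin enzymes, 2 were higher and 3 lower in MI than in Blood, against 21.2% and 13.5% of all genes. Traf1, an adaptor of TNFR2 that is itself an NF-kB target, was at 75.6 to 111 in MI and at 0 and 16.2 in Blood (log2 fold change 3.97, SE 0.69, limma adjusted p = 0.00191). The 0, in Blood 21, allows up to 21.2, with which the difference between the group means is 2.20, and the fitted value was 2.38 without that library. Tnfaip3, which encodes the NF-kB inhibitor A20, was at 319 to 1257 in MI and 55.9 to 91.8 in Blood (3.22, SE 0.66, limma adjusted p = 0.00466). Rnf31 (-1.34, SE 0.27) and Sharpin (-1.30, SE 0.32), which encode parts of the same linear ubiquitin ligase complex, were lower, Sharpin with -0.79 and an adjusted p of 0.054 in limma without Blood 22. Birc2, a ubiquitin ligase gene, was at 58.8 to 116 in MI and at 502 and 147 in Blood 21 and 22. Its call (-1.54, SE 0.48) was lost without Blood 21 (-0.66, limma adjusted p = 0.27) and without MI 13 (-1.22), and it was -2.42 without Blood 22. With MSC, Tnfaip3 (4.15, SE 0.66) and Traf1 (2.79, SE 0.69) were again called higher in the infarct, and Rnf31 (-1.67, SE 0.27) and Sharpin (-1.48, SE 0.32) lower. In MI + MSC, Tnfaip3 was at 2962, 4117 and 1177, so its low library was MI + MSC 18, as for Tnf.

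Among 12 tested receptors outside the 10, Tnfrsf11a, which encodes RANK, was higher in the infarct both without MSC (1.63, SE 0.48) and with it (2.21, SE 0.48). Tnfrsf12a, the TWEAK receptor gene, was higher by 1.20 (SE 0.41) and 1.53 (SE 0.41), and Relt was lower, with -1.89 (SE 0.42) and -1.73 (SE 0.42). Without Blood 21, Tnfrsf12a was 0.72 in MI against Blood, and its call was kept in 2 of 10 fits that left out a library. Ltbr, which encodes the lymphotoxin beta receptor, was called lower in MI than in Blood (-0.87, SE 0.30, and -0.53 without Blood 22), also in 2 of these 10 fits. It was at -0.64 (SE 0.30) with MSC, and the difference between the 2 comparisons was 0.22 (95% interval -0.72 to 1.16, limma adjusted p = 0.855). Of 9 tested cell death genes, Bid was lower in MI than in Blood (-1.51, SE 0.31). Of 5 shedding genes, Timp3, an inhibitor of ADAM17, was higher in the infarct in both comparisons (3.59, SE 0.45, and 2.45, SE 0.45), and Rhbdf1, a cofactor of ADAM17, was called higher in MI (2.55, SE 0.64). Rhbdf1 had 0 reads in Blood 21, whose limit of 21.2 is above the values of MI 13 and MI 20, so the difference is 0.78 with that limit, and the call was lost without this library (1.62, limma adjusted p = 0.0573). Timp3 was at 546 to 677 in MI and 80.4 to 225 in MI + MSC, and the endothelial sum was also lower in MI + MSC than in MI. The part of endothelial RNA was not tested.

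**Figure D5:**
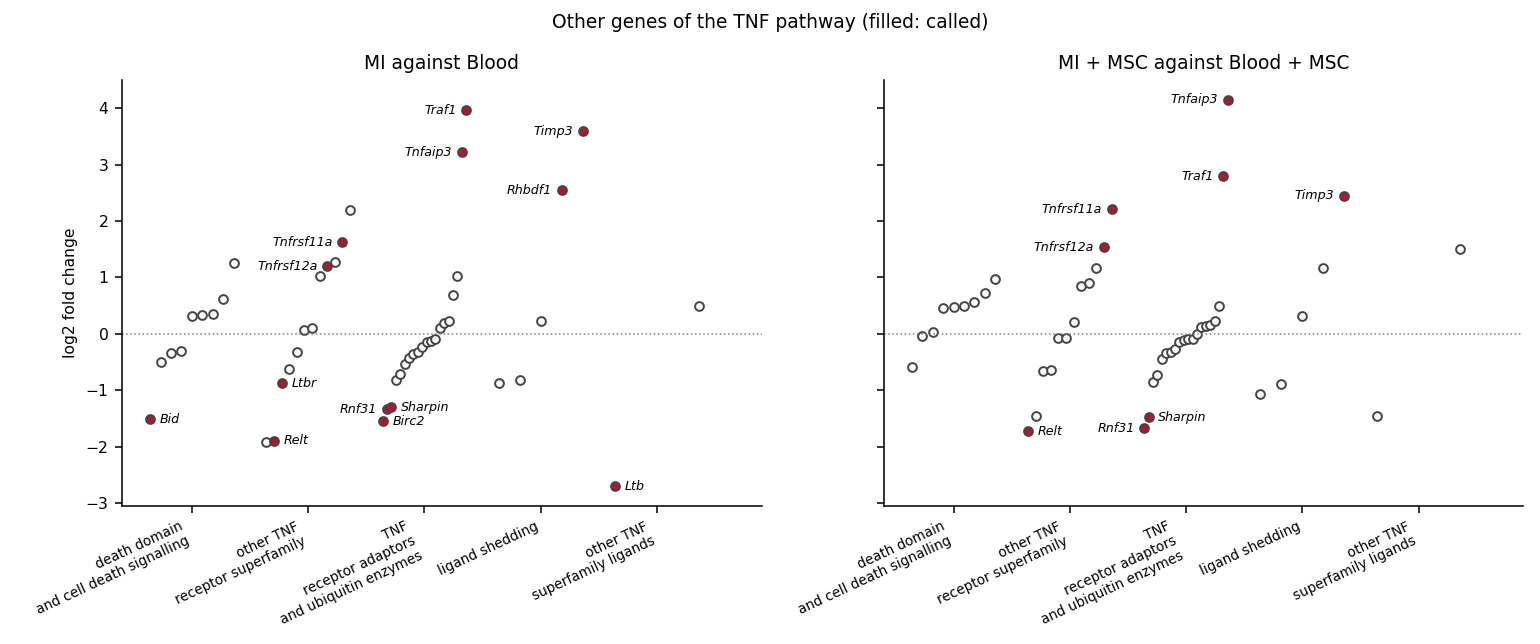
Log2 fold changes of the 48 tested pathway genes outside the 10 members, by list, in the 2 comparisons of infarct with blood, ordered by value within a list and filled and named where called. Among genes called in MI against Blood, Traf1 (3.97, and 2.20 with the 0 of Blood 21 at its limit), Timp3 (3.59) and Tnfaip3 (3.22) had the highest fitted values and Ltb the lowest.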

How the data were processed

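Libraries of Ly6G+ cells were made after ribosomal RNA depletion and sequenced as stranded pairs. According to the study's methods, reads were trimmed (Trimmomatic), cleared of duplicates (Picard), mapped to GRCm39 (STAR) and counted by strand (featureCounts), mitochondrial reads were left out, and counts were normalized with DESeq2. Removing duplicates can lower strongly expressed genes, which was not tested. The deposited signal values are these read counts divided by the size factor of each library, and both deposited tables were equal in all 281850 values, although one is named as raw counts. Within each library, dividing by the smallest step between values gave whole reads for 100.0% of values (tolerance 0.01 reads).

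Groups came from the labels. Genes averaging 10 or more normalized counts (11549) entered a limma (3.58.1) fit to log2(normalized count + 2) whose prior variance followed the mean level, with a mean for each of the 4 groups, all 10 libraries and Benjamini-Hochberg adjustment. All 10 members passed this filter, Tnfsf9 with a mean of at least 10 in 2 groups, Fasl, Tnfsf10 and Tnfsf13b in 3, and the others in 4. Fold changes are on the log2(value + 2) scale, which can understate changes of low genes. Where a gene had a 0 in a shallow library, the fitted change can be overstated instead. In MI against Blood, the fitted values of Traf1, Rhbdf1 and Tnfsf9 were 3.97, 2.55 and 1.86. With 3 reads in place of the 0, the differences between the group means were 2.20, 0.78 and 0.09. edgeR (4.0.16), DESeq2 (1.42.0) and limma-voom on the recovered reads, other pseudocounts, filters and scalings, and leaving out libraries were alternatives. The fits were checked on simulated data. The labels do not name the animals. The study names single animals as its experimental unit, but whether a heart and a blood library share a mouse is not given. The p-values measure the spread between these libraries. Where a library had 0 reads, 3 reads were taken as the limit. Identifiers were named with GENCODE release 39 on GRCm39 (27906 of 28185), whose merged exons gave lengths and whose canonical starts gave promoters, and 10 of 10 members matched. The genes named are the 10 members, in each pathway list those called in an MSC comparison and the 2 highest and 2 lowest called between infarct and blood, and the 3 most alike genes (mean of at least 50) for 4 members. Members and lists were chosen with earlier results of these data known, and 1 pathway gene of these lists is not reported here. Scripts ran in Python 3.11.15 (matplotlib 3.10.9, scipy 1.17.1, pandas 2.3.3, numpy 2.4.6) and R 4.3.3.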

Additional observations from a re-analysis of the deposited data

How the results depend on the processing

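The 25 alternative settings kept the direction of every member in the comparisons where the main fit called it. Tnfsf9 and Tnfsf13b had 24 settings, since they fell below a mean of 20. A blood group left with 1 library was assumed to vary like the others. No paired analysis was possible because the groups share no replicate number. The number of members called in MI + MSC against MI was 0, and 1 (Tnf) with DESeq2 on all libraries, with DESeq2 on the groups compared and with voom quality weights. In Blood + MSC against Blood it was 0, and 1 (Fasl) with DESeq2 on the groups compared. In MI + MSC against Blood + MSC it was 3, and 6 with edgeR and TMM, 5 with edgeR and the deposited size factors, 5 with DESeq2 on all libraries, 7 with DESeq2 and 7 with limma on the groups compared, 5 with voom, 6 with voom quality weights, 7 without both MI 13 and Blood 21, and 1 to 4 without 1 library, the 1 being without Blood + MSC 23. In MI against Blood, leaving out 1 library gave 3 to 5. The pathway genes called in MI + MSC against Blood + MSC were 8, and 13 to 20 with the count models, with limma on the groups compared and without both shallowest libraries, and 1 without Blood + MSC 23. In MI against Blood they were 13, and 7 with limma on the groups compared. Pathway genes called with MSC in the heart were 0, and 1 and 3 with DESeq2 (all libraries and the groups compared) and 2 with voom quality weights. Without Blood 22, 3 were called with MSC in blood and 2 for the difference between tissues. Of the 13 pathway genes called in MI against Blood, Relt, Traf1, Rnf31, Tnfaip3, Bid and Timp3 were called whichever library was left out. Of the 8 called after MSC, Tnfaip3 was.

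Members changed sign only in comparisons where the main fit did not call them. With MSC in the heart, Fas turned to -0.27 (voom), -0.21 (voom quality weights) and -0.12 (without both shallowest libraries), Fasl to 0.09, 0.17 and 0.63 under the same, Tnfsf14 to 0.15 and 0.09 under the last 2, and Tnfsf13b to 0.04 under the last. With MSC in blood, Tnf turned to -0.0028 and -0.05 (edgeR with TMM and with deposited size factors) and -0.24 and -0.27 (DESeq2 on all libraries and on the groups compared), Fas to -0.11, -0.16, -0.10 and -0.07 under these 4, -0.09 (voom) and -0.61 (without both shallowest libraries), Tnfrsf1b to -0.02 and -0.0006 (DESeq2), and Tnfrsf1a to 0.07 (library size). In MI against Blood, Tnfrsf1b turned to 0.05 (library size) and 0.08 (without both shallowest libraries), Fasl to 0.12 and 0.10 (DESeq2) and Cd40 to 0.24 (library size). Library size scaling moved the median of all genes in MI against Blood from 0.15 to 0.63, and TMM to 0.01. Leaving out 1 library gave, with MSC in the heart, Fas -0.26 to 0.61, Fasl -1.57 to 0.63, Tnfsf13b -1.04 to 0.04, Tnfsf14 -0.44 to 0.09 and Cd40 -0.02 to 0.66; with MSC in blood, Tnf -1.01 to 1.14, Tnfrsf1a -0.54 to 0.10, Tnfrsf1b -0.16 to 0.21, Fas -0.61 to 1.09 and Cd40 -0.33 to 0.78; in MI against Blood, Tnfrsf1b -0.74 to 0.02, Fasl -2.05 to 0.88 and Cd40 -0.65 to 0.03; and in MI + MSC against Blood + MSC, Tnfsf13b -0.87 to 0.0062 and Cd40 -0.76 to 0.34. The cause of these changes was not tested. Depth limits Fas, Tnfsf9, Tnfsf10, Tnfsf13b, Tnfsf14 and Cd40, which had 10 reads or fewer in MI 13 and in Blood 21.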
